A study of Mus musculus with 8 samples.

Results

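The endoplasmic reticulum (ER) folding and export machinery was described here as a set of 40 genes, of which 39 were measured among 19938 genes on the array. A member was measured where at least 1 probe set carried its symbol and no other, and where several did, the brightest on average was taken. Kdelr2 had no such probe set and was not analysed here. The tissue was the mouse pancreatic bud at embryonic stage e12.5, in which the early pancreatic epithelium grows within mesenchyme. Each of 4 groups was 1 pool of RNA, hybridized to an Affymetrix mouse gene 1.0 ST array and then to another as a technical repeat. The VEGF pool held fresh buds of 3 embryos carrying Pdx1-tTA and TET-VEGF, in which a transactivator driven by the promoter of the pancreatic gene Pdx1 switches on a VEGF transgene. The control pool held fresh buds of 3 littermates with Pdx1-tTA alone, so both bud pools carried the transactivator. The pool labelled VEGFR2i and the pool labelled vehicle each held 5 wild-type buds, explanted and kept in culture over 2 days, with VEGF receptor 2 inhibited or with vehicle. Expression is given as log2 levels, in which a difference of 1 is a 2-fold change.

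Proteins that a cell secretes or places in its membranes enter the ER through the Sec61 channel, lose their signal peptide, receive sugar chains and are folded by chaperones and disulphide isomerases. Folded cargo leaves in COPII vesicles, escaped ER residents are brought back by KDEL receptors, and proteins that fail to fold are returned to the cytosol for degradation. When folding demand exceeds capacity, the sensors Ire1 (gene Ern1), Atf6 and Perk (gene Eif2ak3) start the unfolded protein response, which raises transcription of this machinery. Acinar cells of the pancreas, which make digestive enzymes in bulk, are known for an extensive ER.

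No p-value for a condition could be had, because each condition was 1 pool, and the arrays of a pool measure hybridization error only. A gene was therefore called higher or lower by a size rule: pool means at least 1.5-fold apart (0.585 on the log2 scale), with no overlap between the arrays of one pool and those of the other. Within a pool, 4 to 25 of all genes and 0 members differed by that size from array to array, and the largest gap for a member was 0.38 (Sec11c, control pool). The median over all probe sets was 4.29 to 4.33 on explant arrays and 4.08 to 4.12 on bud arrays. The epithelial marker Pdx1 was at 6.38 in VEGF buds, 6.96 in control buds and 8.43 in both explant pools. Ptf1a, a factor of acinar cells and their progenitors, was at 3.88 in VEGF buds and 3.96 in control buds. The endothelial genes of the explants go against their labels: all 21 had both arrays of the pool labelled VEGFR2i above both of the pool labelled vehicle, with Kdr at 8.12 in VEGFR2i-labelled explants against 6.02 in vehicle-labelled explants. Directions between the explant pools follow the labels as they stand.

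The members fell into a plain pattern over the 4 pools. In the buds they were nearly level between VEGF and control. Within the explants most had small negative differences, VEGFR2i minus vehicle as labelled, and the explants as a whole lay above the buds. All 39 members had their 4 explant arrays above their 4 bud arrays, a pattern shown by 54.0% of all genes, and 0 members had the opposite pattern, shown by 9.60%. Since the sets may have been normalized separately, that count also holds any offset between them.

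**Figure D1:**
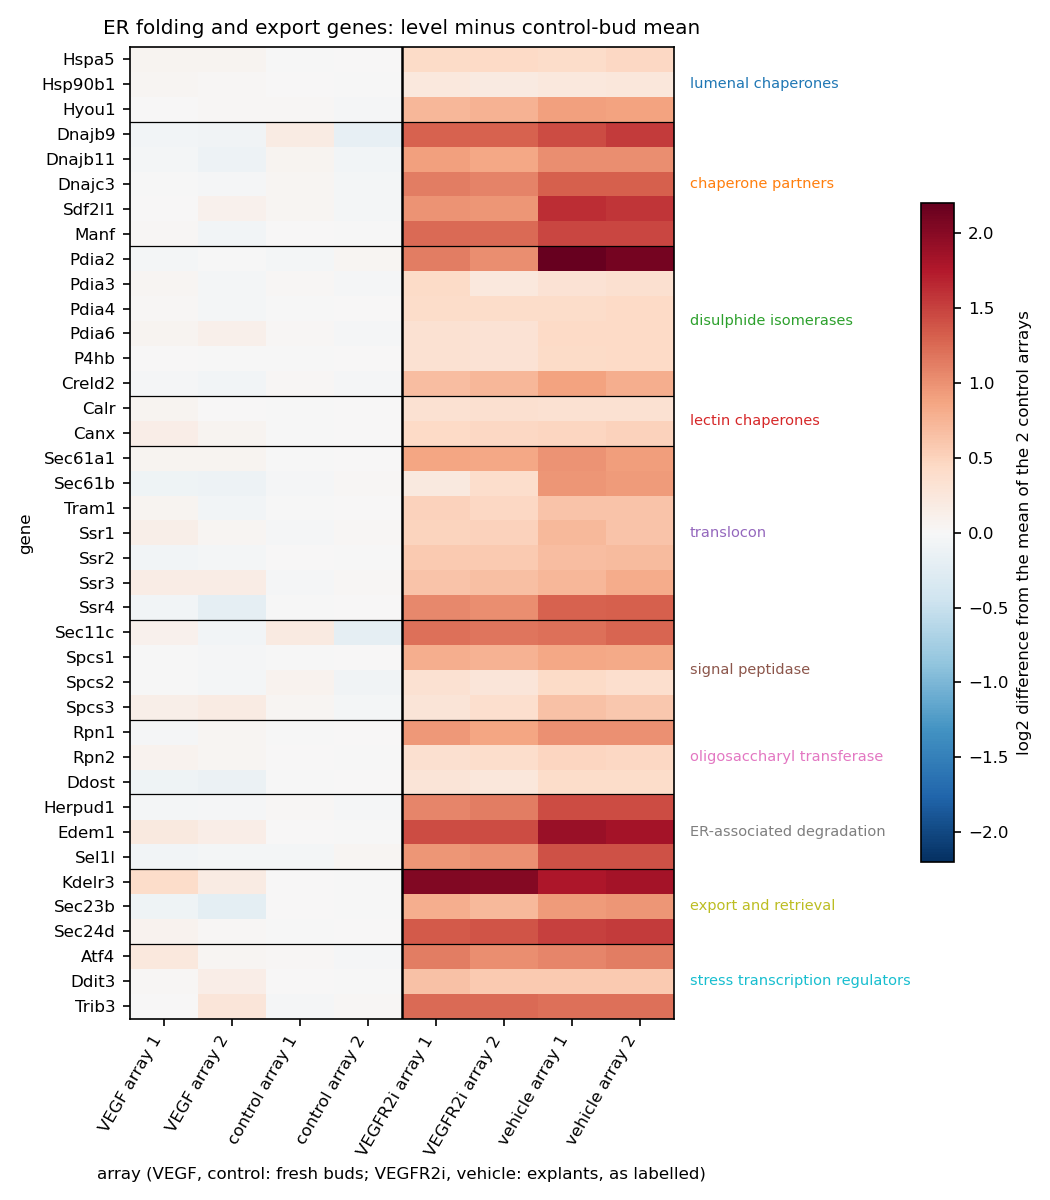
Level of each of the 39 members on each of the 8 arrays, as the log2 difference from the mean of the 2 control arrays, with genes grouped by role down the page and the pools as labelled across it. The 4 bud columns on the left are pale throughout, and the 4 explant columns are red, with Kdelr3 and Edem1 among the deepest in both pools and Pdia2 and Sdf2l1 deeper in the vehicle columns.

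Promoter sequences are shown because the unfolded protein response is known to act through short DNA elements near the start of such genes. RefSeq promoter windows (build GRCm38.p6) were matched by symbol for 32 of the 40 genes, in 34 windows, and the 250 bases before each gene's start were searched on both strands. The ER stress response element (ERSE), known to bind Atf6 with NF-Y, was searched as CCAAT and CCACG with any 9 bases between them. It was found in windows of 7 members, namely Hspa5, Hsp90b1, Calr, Canx, Pdia6, Creld2 and Dnajc3, and in 0.113% of all 32851 windows. Its relative ERSE-II, ATTGG and CCACG with any 1 base between them, was found for Herpud1 and in 0.0304% of all windows. The core of the element bound by Xbp1, TGACGTGG, was found for Kdelr3 and Sec24d and in 0.563% of all windows. An element of the amino acid response, TGATGCAAN, was found for Herpud1 and in 0.785% of all windows. No match overlapped a match to another of these motifs. A match describes the letters only, and binding was not measured.

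The matched stretches are printed 5′ to 3′ on the gene's own strand, with the motif in capitals and, in these, 15 bases on either side. A motif that reads in the opposite direction appears as its reverse complement.
Hspa5, chr2:34772010-34772058, plus strand: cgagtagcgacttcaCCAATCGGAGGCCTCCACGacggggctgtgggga
Hsp90b1, chr10:86705518-86705671, minus strand, with 2 copies: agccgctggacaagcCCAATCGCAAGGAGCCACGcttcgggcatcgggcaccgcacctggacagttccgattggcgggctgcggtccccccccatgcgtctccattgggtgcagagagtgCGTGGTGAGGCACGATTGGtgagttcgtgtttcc
Calr, chr8:84847060-84847108, minus strand: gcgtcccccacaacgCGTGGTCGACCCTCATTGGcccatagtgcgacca
Canx, chr11:50325785-50325833, minus strand: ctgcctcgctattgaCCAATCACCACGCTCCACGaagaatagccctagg
Pdia6, chr12:17266476-17266524, plus strand: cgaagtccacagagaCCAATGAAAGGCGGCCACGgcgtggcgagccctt
Creld2, chr15:88819505-88819553, plus strand: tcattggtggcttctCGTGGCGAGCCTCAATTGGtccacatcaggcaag
Dnajc3, chr14:118937812-118937860, plus strand: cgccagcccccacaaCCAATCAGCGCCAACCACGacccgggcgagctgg
Herpud1, chr8:94386301-94386402, plus strand, with the amino acid response element and then ERSE-II: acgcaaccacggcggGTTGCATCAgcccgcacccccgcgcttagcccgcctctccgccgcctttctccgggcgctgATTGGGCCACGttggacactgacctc
Kdelr3, chr15:79516363-79516400, plus strand: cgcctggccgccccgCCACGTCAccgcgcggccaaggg
Sec24d, chr3:123267455-123267492, plus strand: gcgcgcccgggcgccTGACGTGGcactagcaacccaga
Counted from the gene's start, with the base before it as -1, the motif ran from -65 to -47 in Hspa5 and from -26 to -19 in Sec24d.

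The VEGF and control buds had this machinery at nearly the same level. None of the 39 members was higher and none was lower by the size rule, beside 0.552% of all genes higher and 0.933% lower. The median difference was 0.012 on the log2 scale, against 0.0031 over all genes. Single differences ran from -0.15 for Sec23b to 0.29 for Kdelr3. Both VEGF arrays lay above both control arrays for 15 members (23.7% of all genes did) and below them for 8 (21.6% did), while the arrays of 16 members overlapped. With array medians subtracted, 18 lay above and 5 below, and the median over all genes also rose, to 0.026. The share of all genes was not counted under that scaling, so this split is not read as a result about the members.

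Hspa5, the Hsp70 chaperone BiP of the ER lumen, was at 10.84 and 10.84 on the VEGF arrays and at 10.77 and 10.79 on the control arrays. The groups did not overlap, yet the difference was 0.060, a 1.04-fold level. Hsp90b1, the ER member of the Hsp90 family, differed by 0.041, and Hyou1, a large Hsp70-like chaperone, by 0.017 with overlapping arrays. Kdelr3, a KDEL receptor that retrieves ER residents from the Golgi, was at 6.71 and 6.48 on the VEGF arrays and at 6.32 and 6.29 on the control arrays. Both VEGF arrays were above both control arrays, and the difference was 0.29 [0.16, 0.41], where brackets give the range over the 4 pairs of arrays. Edem1, a lectin that passes misfolded glycoproteins to degradation, differed by 0.18 [0.13, 0.23]. Ssr3, a subunit of the translocon-associated TRAP complex, and Spcs3, a subunit of signal peptidase, each differed by 0.16. On the negative side, Sec23b, a coat protein of COPII vesicles, was at 8.60 and 8.48 in VEGF buds against 8.71 and 8.68 in control buds. The TRAP subunit Ssr4 differed by -0.13 and the oligosaccharyl transferase subunit Ddost by -0.11. All these values are short of the size rule.

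The transcription regulators of the stress response were also near level in the buds. Atf4, which Perk signalling induces through translation, was at 7.80 and 7.62 in VEGF buds and at 7.60 and 7.55 in control buds, a difference of 0.14 [0.025, 0.26]. Trib3, a target of Atf4, differed by 0.14 with overlapping arrays, and Ddit3, which encodes the pro-apoptotic factor Chop, by 0.086. Of 130 other measured genes of the secretory pathway and its stress response, none was higher, beside 0.552% of all genes. By the same rule 1 gene was lower, beside 0.933%. That gene was Mia2, which helps large cargo leave the ER, at 4.94 in VEGF buds against 5.85 in control buds, a difference of -0.91 [-1.08, -0.74]. Next in size came the sulphydryl oxidase Qsox1 (-0.49), the p24 cargo receptor Tmed3 (-0.38), the oligosaccharyl transferase subunit Magt1 (0.32) and the sensors Ern1 (-0.31) and Atf6 (-0.30), which fell short of the rule.

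Markers of secretory cells were lower in the same VEGF pool. Of 20 endocrine markers 15 were lower, with a median of -0.98 and a summed linear signal of 2780 to 2900 on the VEGF arrays against 6930 to 6980 on the control arrays. Of 16 epithelial markers 10 were lower (median -0.63, sums of 4880 to 5050 against 7460 to 7570), and of 24 acinar markers 5 were lower (median -0.077, sums of 2340 to 2420 against 4690 to 4700). The median level of the acinar markers in control buds was 3.57, below the median of those arrays. Most of their sum came from Cpa1, at 10.87 in VEGF buds against 11.74 in control buds. Of 21 endothelial markers 9 were higher (median 0.54, sums of 6410 to 6530 against 4220 to 4260), as were 6 of 10 red blood cell markers (median 0.97) and 5 of 8 mesothelial markers (median 0.66). Of 17 mesenchymal markers 1 was lower, and of 16 leukocyte markers none passed the rule. Their part in the members' values was not tested. In pooled tissue, fewer cells of a type and less RNA per cell cannot be told apart.

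The question of the explant comparison was what blocking VEGF receptor 2 did to the cultured bud. Lower in the pool labelled VEGFR2i were the disulphide isomerase Pdia2, the translocon subunit Sec61b and the chaperone partner Sdf2l1. These 3 of 39 members passed the size rule, beside 0.371% of all genes, and none was higher, beside 1.82%. The median difference was -0.13, against -0.0044 over all genes. Both arrays of the pool labelled VEGFR2i lay below both of the pool labelled vehicle for 32 members (25.0% of all genes did), and above them for 2 (25.9% did), Kdelr3 and Trib3. The differences of the other 36 members ran from -0.43 to 0.22.

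Pdia2, a disulphide isomerase known from the pancreas, was at 4.23 and 4.13 on the arrays labelled VEGFR2i and at 5.34 and 5.21 on those labelled vehicle. The arrays did not overlap, and the difference was -1.09 [-1.21, -0.98]. The level in the pool labelled VEGFR2i was below the median of its arrays, so the size of that difference is not settled. In the buds the same probe set was at the dim end of the scale, at 3.05 and 3.10 in VEGF buds and 3.06 and 3.14 in control buds. Sdf2l1, which works with ER chaperones of the DnaJ class, was at 7.99 and 7.98 in the pool labelled VEGFR2i against 8.63 and 8.58 in vehicle explants, which gives a difference of -0.62 [-0.65, -0.60]. Sec61b, the small beta subunit of the Sec61 channel, was at 7.76 and 7.92 in VEGFR2i-labelled explants against 8.52 and 8.48 in vehicle-labelled explants, a difference of -0.66 [-0.76, -0.55]. Its call was lost without VEGFR2i array 1, where the difference was -0.576. Sec61b has 2 further probe sets, which differed by -0.582 and -0.541 and lay just outside the rule. The channel's main subunit, Sec61a1, differed by -0.10.

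The 3 members of ER-associated degradation came next in size, and all were short of the rule. Edem1 was at 8.81 and 8.80 in the pool labelled VEGFR2i against 9.27 and 9.20 in the pool labelled vehicle (difference -0.43). Sel1l, the adaptor of the ubiquitin ligase that takes proteins out of the ER, was at 9.90 and 9.93 in VEGFR2i-labelled explants against 10.33 and 10.32 in vehicle-labelled explants (-0.41). Herpud1, a membrane protein of the same ligase complex, was at 8.94 and 8.99 in VEGFR2i-labelled explants against 9.30 and 9.30 in vehicle-labelled explants (-0.34). None of these arrays overlapped between the pools, and 25.0% of all genes likewise lay below vehicle without overlap. The smaller fold tried as an alternative took in these 3 and no other member.

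The lumenal chaperones Hspa5 and Hsp90b1 were close to level between the explant pools. Hspa5 was at 11.20 and 11.21 in the pool labelled VEGFR2i against 11.19 and 11.23 in that labelled vehicle, with overlapping arrays and a difference of -0.0030. Hsp90b1 differed by -0.029. Pdia3, the isomerase that works with calnexin and calreticulin, overlapped as well (-0.016), and its arrays in the pool labelled VEGFR2i lay 0.19 apart. Calr, the lectin chaperone calreticulin, differed by 0.017, and its membrane-bound relative Canx by -0.044. Among the remaining folding genes, differences ran through P4hb (-0.10), a disulphide isomerase that is also a subunit of collagen prolyl hydroxylase, Pdia6 (-0.12), Creld2 (-0.14) and Hyou1 (-0.14) to Dnajb9 (-0.20), Dnajc3 (-0.21) and Manf (-0.22). Dnajb9 and Dnajc3 are DnaJ partners of BiP, and Manf is a secreted factor that also binds BiP.

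The members of entry, signal cleavage and glycosylation all had negative differences. Other genes of these steps went both ways. Of 14 for targeting and translocation, 4 were positive and 10 negative, and of 17 for glycosylation, 6 and 11. All 7 translocon members had non-overlapping arrays below vehicle, from -0.10 for Sec61a1 to -0.66 for Sec61b, with Ssr4 at -0.27. So did the 4 signal peptidase members, from -0.055 for Spcs1 to -0.29 for Spcs3, and the 3 oligosaccharyl transferase subunits Rpn1 (-0.093), Rpn2 (-0.094) and Ddost (-0.14). By the same measure 25.0% of all genes lay below vehicle. The export genes differed in sign: Sec23b was at -0.20 and Sec24d, the COPII cargo adaptor, at -0.15, whereas Kdelr3 was at 8.34 and 8.32 in the pool labelled VEGFR2i against 8.09 and 8.13 in the pool labelled vehicle (0.22 [0.19, 0.25]). The stress regulators Atf4 (-0.013), Ddit3 (0.032) and Trib3 (0.029) were near level.

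**Figure D2:**
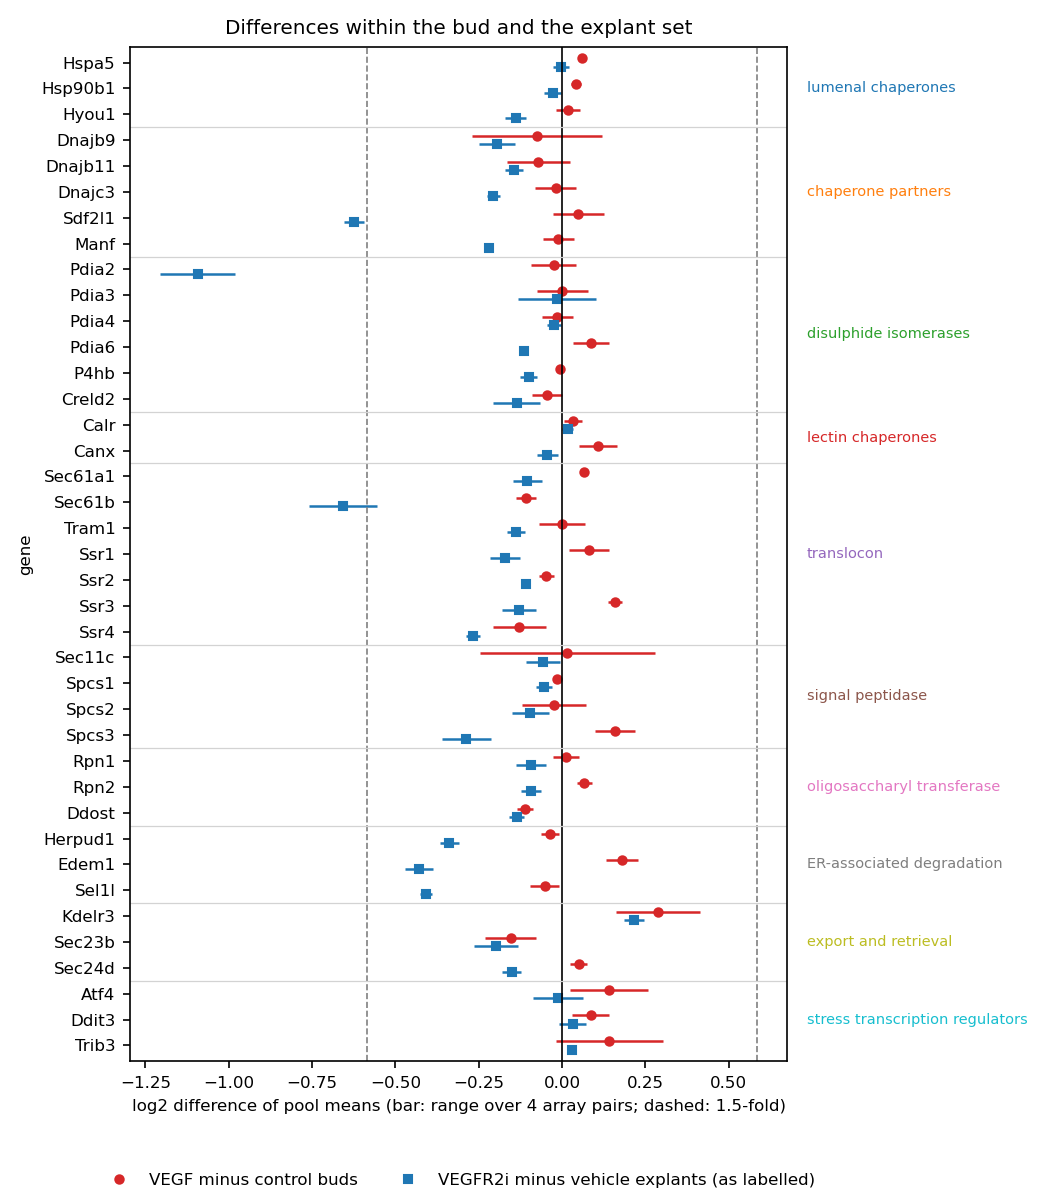
Difference of pool means for each member within the buds (red circles, VEGF minus control) and within the explants (blue squares, VEGFR2i minus vehicle as labelled), on the log2 scale, with bars for the range over the 4 array pairs and dashed lines at 1.5-fold. Red circles stay between -0.15 and 0.29, and blue squares lie mostly left of 0, with Pdia2, Sec61b and Sdf2l1 beyond the dashed line.

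Of the 130 other pathway genes, 4 passed as lower in the explants labelled VEGFR2i, beside 0.371% of all genes. None passed as higher, beside 1.82%, and the median was -0.045. Ero1b, an oxidase that recharges disulphide isomerases and is known from the pancreas, was at 7.22 in VEGFR2i-labelled explants against 7.95 in vehicle-labelled explants (-0.73). Derl3, a degradation factor, was at 4.82 in VEGFR2i-labelled explants against 5.50 in vehicle-labelled explants (-0.68). Edem2, a relative of Edem1, was at 8.47 in VEGFR2i-labelled explants against 9.12 in vehicle-labelled explants (-0.65), and Nupr1, a stress-induced nuclear protein, at 8.81 in VEGFR2i-labelled explants against 9.44 in vehicle-labelled explants (-0.63). These were the 4 that passed. Short of the rule lay the prolyl isomerase Fkbp11 (-0.57), Mia2 (-0.52) and the p24 cargo receptor Tmed6 (-0.42). On the positive side, P4ha1, the catalytic subunit of collagen prolyl hydroxylase, was at 7.68 in VEGFR2i-labelled explants against 7.31 in vehicle-labelled explants (0.37) and Fkbp14, a prolyl isomerase that assists collagen folding, at 7.63 in VEGFR2i-labelled explants against 7.26 in vehicle-labelled explants (0.37), again short of the rule. Tmed6, P4ha1 and Fkbp14 were chosen after their values were seen.

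Cell type markers differed between the same explant pools. Of 24 acinar markers 14 passed as lower in the explants labelled VEGFR2i and 0 as higher, with a median of -0.74 and sums of 27200 to 27600 on its arrays against 36900 to 37500 on the vehicle arrays. Bhlha15 (Mist1), an acinar transcription factor known to drive secretory capacity, was at 7.19 in VEGFR2i-labelled explants against 8.14 in vehicle-labelled explants. Of 20 endocrine markers and 16 epithelial markers none passed the rule (medians -0.085 and -0.19, epithelial sums of 17100 to 17300 against 19100 to 19600). Mesenchymal markers had 3 of 17 higher (median 0.25, sums of 24300 to 24600 against 20600 to 21100), endothelial markers 19 of 21 (median 1.68, sums of 3030 to 3130 against 790 to 821), and leukocyte markers 12 of 16 (median 0.84, sums of 1700 to 1750 against 949 to 967). Red blood cell markers had 2 of 10 higher (median 0.070), and of 8 mesothelial markers none passed the rule. No marker is at 0 on this scale, whose lowest value is 2.41. Their part in the members' values was not tested.

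**Figure D3:**
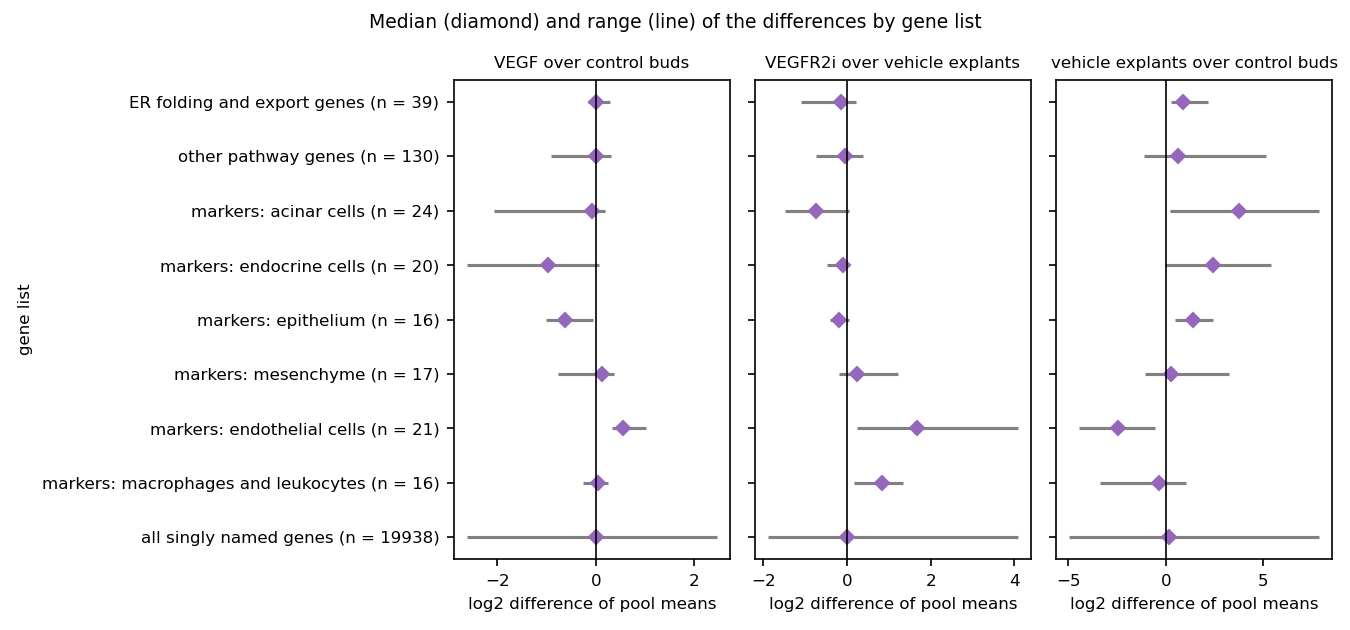
Median (diamond) and full range (line) of the log2 differences of pool means for the 39 members, 130 other pathway genes, 6 marker lists and all 19938 genes, in 3 panels with their own axes. The members span -0.15 to 0.29 in the left panel, have a median of -0.13 beside -0.74 for acinar markers in the middle panel, and lie wholly to the right of 0 in the right panel.

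Levels were then set across the sets, vehicle explants over control buds. This comparison spans 2 days of culture, a difference in genotype (wild-type explants, Pdx1-tTA buds) and, possibly, separate normalization. It shares its control arrays with the bud comparison and its vehicle arrays with the explant comparison. Differences were positive in every role and uneven in size: medians were 0.41 for the lectin chaperones and 0.43 for the lumenal chaperones and for the disulphide isomerases, against 1.43 for degradation, 1.47 for the chaperone partners and 1.52 for export and retrieval. By the size rule 27 of 39 members were higher, beside 17.9% of all genes, and none was lower, beside 4.08%. Both vehicle arrays lay above both control arrays for all 39 members, as for 67.8% of all genes. The members' median difference was 0.89, a 1.86-fold level, against 0.17 over all genes, so it lay 0.72 above the general shift. With array medians subtracted, 22 members were higher beside 11.4% of all genes, and with all 8 arrays set to 1 distribution 19 were higher beside 9.88%. Under those scalings all 39 differences stayed positive, down to 0.030 for Hsp90b1 and 0.031 for Calr. Of all genes called, 81.5% were higher as deposited, 64.0% with medians subtracted and 57.0% with 1 distribution.

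The lumenal chaperones Hspa5 and Hsp90b1 and both lectins were short of the rule. Hsp90b1 was at 11.58 and 11.60 in vehicle explants and at 11.35 and 11.34 in control buds, a difference of 0.24, the smallest of all members and a 1.18-fold level. Hspa5 was at 11.19 and 11.23 in vehicle explants against 10.77 and 10.79 in control buds (0.43), Calr differed by 0.33 and Canx by 0.49. Hyou1, at 9.86 and 9.83 in vehicle explants against 8.98 and 8.92 in control buds, was the lumenal chaperone that passed the rule (0.89), though not with all arrays set to 1 distribution. The isomerases Pdia3 (0.34), P4hb (0.43), Pdia4 (0.43) and Pdia6 (0.44) stayed short of it. A dimmer probe set of Pdia4 was at 3.73 in both pools. Creld2, a secreted isomerase of the stress response, differed by 0.84 and lost its call with all arrays set to 1 distribution, and Pdia2 by 2.17. The control level of Pdia2, 3.06 and 3.14, was below the median of its arrays, and no background calls were used, so the size of that difference is not settled and may be understated. The same holds for Trib3, below the median in control buds.

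All 5 chaperone partners were higher. Sdf2l1 was at 8.63 and 8.58 in vehicle explants against 7.04 and 6.97 in control buds, a difference of 1.61 [1.54, 1.67]. Dnajb9 was at 7.89 and 7.99 in vehicle explants against 6.64 and 6.27 in control buds, a difference of 1.49 [1.26, 1.72] and the widest range of the 5. Manf differed by 1.47, Dnajc3 by 1.31 and Dnajb11, another DnaJ partner of BiP, by 1.020. Each of these differences was larger than that of Hspa5 on the same arrays, 0.43.

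The 3 degradation members were all higher, by 2.64-fold or more. Edem1 was at 9.27 and 9.20 in vehicle explants and at 7.39 and 7.36 in control buds, a difference of 1.86 [1.81, 1.91]. Herpud1 differed by 1.43 and Sel1l by 1.40. The 3 export and retrieval members were higher too. Kdelr3 was at 8.09 and 8.13 in vehicle explants against 6.32 and 6.29 in control buds, a difference of 1.81 [1.77, 1.84]. Sec24d was at 9.37 and 9.40 in vehicle explants against 7.87 and 7.87 in control buds (1.52), and Sec23b differed by 0.95.

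The 7 translocon members were all higher, with Ssr4 at 1.31, Sec61a1 and Sec61b at 0.96, and the others between 0.62 and 0.78. The further probe sets of Sec61b differed by 1.45 and 1.21. The others, Tram1, a membrane protein that aids chain entry, and the TRAP subunits Ssr1, Ssr2 and Ssr3, lost the call under both scalings. In the signal peptidase, Sec11c, a catalytic subunit, was at 5.85 and 5.92 in vehicle explants against 4.82 and 4.44 in control buds (1.249 [1.022, 1.476]), Spcs1 differed by 0.84, Spcs3 by 0.62 and Spcs2 by 0.40. Spcs3 lost its call without control array 2, where it differed by 0.583, and under both scalings, and Spcs1 under the setting to 1 distribution. Of the oligosaccharyl transferase, Rpn1 was higher (1.01) while Rpn2 (0.46) and Ddost (0.41) stayed short.

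Of the stress regulators, Trib3 was at 5.22 and 5.21 in vehicle explants against 3.97 and 4.04 in control buds (1.22) and Atf4 at 8.64 and 8.69 in vehicle explants against 7.60 and 7.55 in control buds (1.09). Ddit3 was at 4.97 and 4.97 in vehicle explants against 4.40 and 4.39 in control buds, and its difference of 0.576 lay just short of the rule at 0.585.

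**Figure D4:**
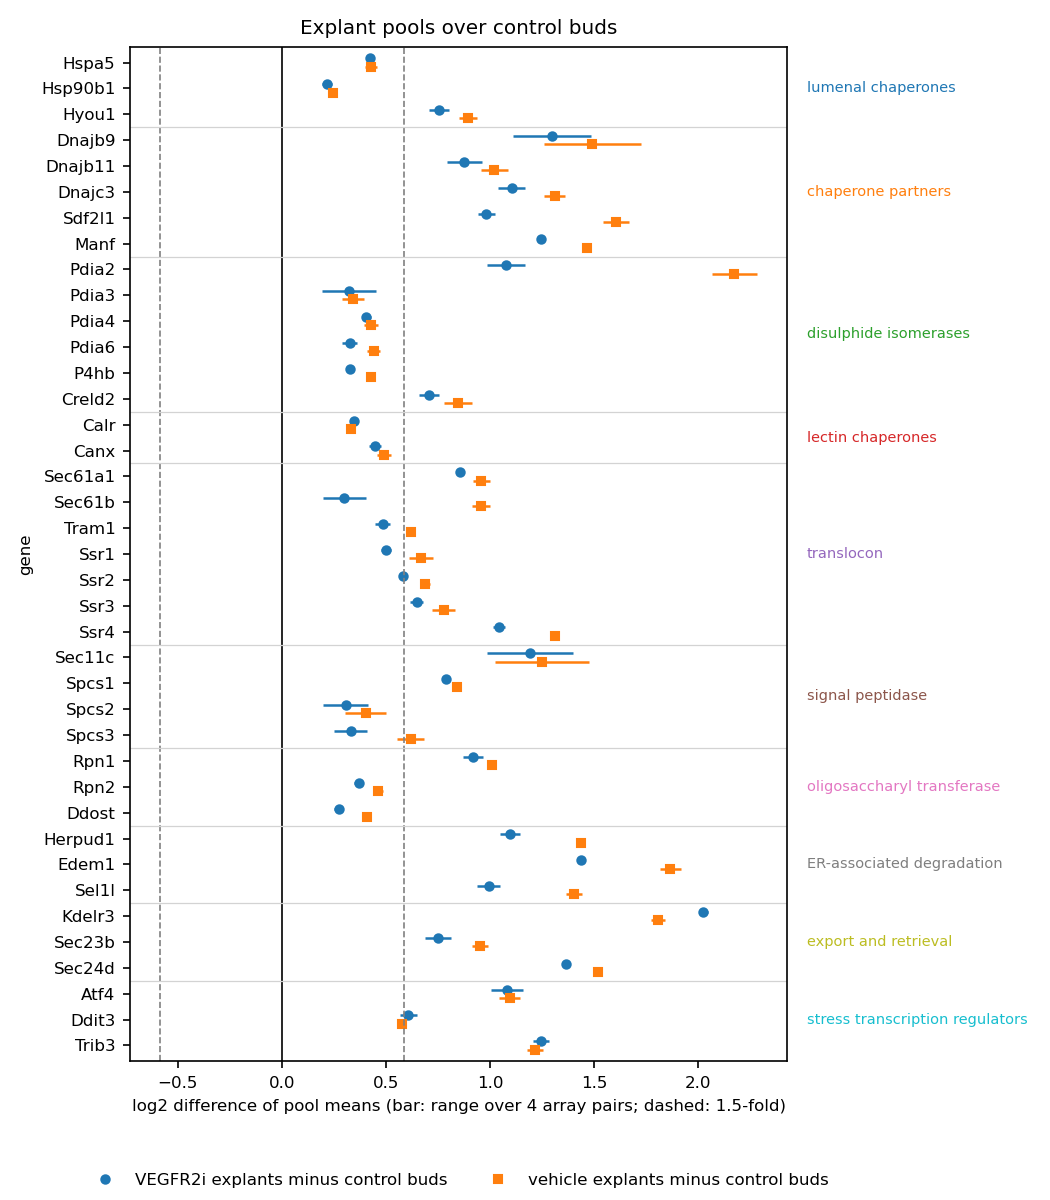
Difference of pool means of each member over the control buds, for the pool labelled VEGFR2i (blue circles) and the pool labelled vehicle (orange squares), on the log2 scale, with bars for the range over the 4 array pairs and dashed lines at 1.5-fold. All points lie right of 0, those of Hspa5, Hsp90b1, Pdia3, Pdia4, Pdia6, P4hb, Calr and Canx stay left of the upper dashed line, and those of Edem1, Kdelr3, Sec24d and the chaperone partners lie well beyond it.

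The pool labelled VEGFR2i, set over the same control arrays, had 23 of 39 members higher, beside 17.7% of all genes, 0 lower, beside 2.52%, and a median of 0.75. Its arrays lay above both control arrays for all 39, as for 67.0% of all genes. Pdia2 differed there by 1.08 against 2.17 for vehicle, both over its dim control level. Edem1 differed there by 1.43 against 1.86, Sec61b by 0.30 against 0.96, and Kdelr3 by 2.02 against 1.81. Both sets of values rest on the same control arrays.

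The split among the members went with the level of the probe set in control buds, a threshold of 10 being chosen after the values were seen. Of 13 members at 10 or above, 4 were higher in vehicle explants, with a median difference of 0.43, and of 26 members below 10, 23 were higher, with a median of 1.15. Those 4 were Sec61a1, Tram1, Ssr2 and Ssr3, all of the translocon, so level went together with role. Tram1, Ssr2 and Ssr3 lost the call under both scalings. The control level is also the value subtracted in the difference. Among all genes, 8.09% of the 383 at 10 or above and 18.1% of the others were higher, with medians of 0.17 in each class. Whether probe sets of high signal understate differences was not tested. Of the 7 members with ERSE, Dnajc3 (1.31) and Creld2 (0.84) were higher by the rule and Hspa5, Hsp90b1, Calr, Canx and Pdia6 were not (0.24 to 0.49). The members with ERSE-II or the Xbp1 core, Herpud1, Kdelr3 and Sec24d, differed by 1.43, 1.81 and 1.52. Members with no match found, which include those without a window, ran from 0.34 (Pdia3) to 1.86 (Edem1) and 2.17 (Pdia2, dim in control buds). Whether the motifs have a part in these differences was not tested.

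Of the 130 other pathway genes, 72 were higher in vehicle explants, beside 17.9% of all genes. The count lower was 1, beside 4.08%, and the median was 0.61. With medians subtracted 43 were higher and 2 lower, beside 11.4% and 6.41% of all genes. With 1 distribution 35 were higher and 2 lower, beside 9.88% and 7.46%. The largest difference was that of Nupr1, at 9.44 in vehicle explants against 4.30 in control buds (5.14), followed by Ero1b, at 7.95 in vehicle explants against 4.23 in control buds (3.72). Mia2 (2.77), Edem2 (2.56) and the asparagine synthetase Asns, a target of Atf4 (2.35), were higher as well. So was Tmed6, whose control level of 3.49 was below the array median, so that the size of its difference is not settled. The sensors Eif2ak3 (1.75), Ern1 (1.60) and Atf6 (1.09) and the factor Xbp1 (1.57) were higher as well. The gene that was lower was Tram2, a relative of Tram1 linked to collagen synthesis (5.82 in vehicle explants against 6.92 in control buds, -1.10). Of 24 acinar markers 21 were higher, with a median of 3.73 and sums of 36900 to 37500 on the vehicle arrays against 4690 to 4700 on the control arrays. Their median level in control buds, 3.57, was below the array median, so the size of that median difference is not settled. Epithelial markers had 14 of 16 higher (median 1.39) and endocrine markers 17 of 20 (median 2.396), while endothelial markers had 20 of 21 lower (median -2.44). Red blood cell markers had 6 of 10 lower and 1 higher (median -1.70), leukocyte markers 6 of 16 lower and 2 higher (median -0.36), mesenchymal markers 4 of 17 higher and 2 lower (median 0.27), and mesothelial markers 3 of 8 higher and 1 lower (median 0.29). Their part in the members' values was not tested. Culture, time, genotype and any difference in normalization cannot be told apart.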

How the data were processed

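The authors deposited 1 log2 value for each probe set and array, made by robust multi-array averaging (RMA) with Partek Genomic Suite 6.5, per the labels' design notes. Values between 2.41 and 13.57 show that the scale is log2. The averaging compresses differences of dim probe sets and can hide a shift common to most genes. No source used here says whether buds and explants were normalized together. RNA was pooled per group, so the 2 arrays of a pool count as 1 replicate. Of 35399 probe sets, 21789 carried 1 symbol in the platform annotation, 1621 several and 11989 none listed there. They named 19938 genes. Other pathway genes (138 listed, 130 measured) were taken from the secretory pathway and its stress response. They and the marker lists were matched by symbol, then through RefSeq synonyms and Entrez IDs. Members and lists were chosen with earlier results of these data known. Of other genes and markers, those past the size rule could be named, and otherwise up to 6 per comparison with the largest absolute difference; among those that passed, the ones named were chosen after their values were seen, and Pdx1 and Ptf1a in the buds were picked outside that rule. The size rule was also run on simulated arrays, with known changes of 2-fold or more and the spread between the control arrays. Those arrays held no variation between pools, so the run cannot tell how the calls would fare in other pools. Python 3.11.15, numpy 2.4.6 and pandas 2.3.3 were used. The number of arrays limits the precision of a pool's level, and 1 pool per group limits what can be said about a condition.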

Additional observations from a re-analysis of the deposited data

How the results depend on the processing

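In the buds, 0 members were called in either direction under every alternative run; their median, 0.012, ranged from -0.000665 to 0.046 over the settings that leave out an array and was 0.034 with array medians subtracted. In the explants, the count of members lower was 3, or 2 to 3 without single arrays, 6 at the smaller fold tried and 1 at 2-fold. Their median, -0.13, ranged from -0.14 to -0.11 without single arrays and was -0.113 with array medians subtracted and -0.112 with all arrays set to 1 distribution. For vehicle explants over control buds, 26 to 27 members were higher without single arrays, 38 at the smaller fold and 16 at 2-fold. The median of 0.89 ranged from 0.86 to 0.92 without single arrays. It became 0.68 with medians subtracted and 0.58 with 1 distribution. These scalings take out any offset between the sets together with any shift common to most genes. The members' median lay 0.72 above that of all genes with medians subtracted and 0.576 above it with 1 distribution. Averaging probe sets and leaving out genes under a level of 5 moved none of these counts, though that filter moved the median in the buds to 0.0011. Among the genes it kept, the shares higher and lower were 0.9801% and 1.604% in the buds and 2.928% and 0.6115% in the explants. For vehicle explants over control buds they were 27.73% and 6.294%. Over all genes, the share higher and the share lower were 2.402% and 2.764% at the smaller fold and 0.0602% and 0.191% at 2-fold in the buds, against 0.552% and 0.933%. In the explants they were 4.459% and 1.831%, and 0.617% and 0.0502%, against 1.82% and 0.371%. For vehicle explants over control buds they were 33.5% and 7.227%, and 7.759% and 1.841%, against 17.9% and 4.08%. No call of a member changed sign. The methods' t-test was not run, since each group holds 1 pool. No paired analysis was possible because the arrays of a pool are technical repeats and the labels give no numbers that pair them across pools.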
